A study of Mus musculus with 8 samples.

Results

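The genes described here act in mitosis, the stage of the cell cycle in which copied chromosomes are separated. The list held 40 genes: the proliferation marker Mki67, Top2a, mitotic cyclins and their kinase, polo and aurora kinases, checkpoint, kinetochore and chromosomal passenger genes, mitotic kinesins, spindle and cytokinesis genes, and genes of anaphase onset. A gene was taken where the array's annotation gave its symbol, and no other, to a row of the value table. In this way 39 of the 40 were measured, among 19938 genes with such a row; Ccnb1 was not analysed here. Top2a had 2 rows, and the row with the higher mean over the 8 arrays was used. The members were not picked by a cut on the measured values, but earlier results of these data were known when the list was chosen.

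Bone marrow cells came from mice aged 7 weeks on a backcrossed C57BL6 background, and their RNA was hybridised to 8 Mouse Gene 1.0 ST arrays of Affymetrix. The knockout (KO) mice had the genotype Vav1-iCre x Cbfb(F/F), and the control (Het) mice Vav1-iCre x Cbfb(F/+). Cbfb encodes the partner subunit of the Runx transcription factors, and the Vav1 promoter drives the Cre recombinase in blood cells. LSK cells (stem cells with the earliest progenitors) and GMP cells (progenitors committed to granulocytes and macrophages) were sorted from 2 mice of each genotype, 200000 cells at a purity above 98%. With 2 arrays each, the groups were LSK and GMP of Het and LSK and GMP of KO. All groups carried the Cre and at least 1 floxed allele, and no wild type was measured, so a difference between KO and Het is that of losing the second allele. The labels do not tie an array to a mouse, so LSK and GMP arrays of a genotype may share mice in an unknown pairing. The reported fit took the 8 arrays as independent.

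Values are log2 expression levels, on which a difference of 1 is a doubling. Over 21789 rows with 1 gene symbol, the correlation was 0.990 to 0.995 between replicates and 0.955 to 0.983 between groups. Cbfb (transcript cluster 10574632) stood at 7.56 and 7.55 in Het LSK, 6.93 and 6.98 in KO LSK, 7.53 and 7.65 in Het GMP, and 6.48 and 6.96 in KO GMP. The KO levels were under the Het levels without overlap, by limma with Benjamini-Hochberg adjusted p = 0.0557 in LSK and 0.013 in GMP. Of 8 GMP markers, 6 were higher and 2 lower in GMP than in LSK in each genotype, and all 4 measured LSK markers (Kit, Cd34, Flt3 and Procr) were lower in Het GMP than in Het LSK. From Het LSK to KO LSK, 2 of these 4 changed: Flt3 fell by 3.41, and Procr fell by 2.27.

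Most mitosis genes are expressed in late S, G2 and M phase and are low in resting cells. Their transcription is held down in quiescence by the DREAM complex, whose MuvB core binds a promoter sequence called the CHR, and is switched on when MuvB pairs with B-Myb and FoxM1; the factor NF-Y binds CCAAT boxes close by. Stem cells are largely quiescent, whereas the progenitors below them divide often. For this reason the level of these genes is commonly read as a measure of how much of a population is cycling. In sorted bulk RNA, fewer dividing cells and less of the transcript per dividing cell cannot be told apart.

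Some promoters are shown here because CHR and CCAAT elements are known in many genes of this kind. Whether the elements have a part in the array differences was not tested. Promoter windows from RefSeq (build GRCm38.p6, 250 bases before to 50 bases after the annotated start) were matched for 32 of the 39 genes. The motifs searched on both strands were TTTGAA (the CHR), its variant TTTAAA, and CCAAT. Printed below are the 120 bases before the annotated start, 5′ to 3′ in the direction of the gene, with TTTGAA and CCAAT, or their reverse complements TTCAAA and ATTGG, in capitals. The positions are chr10:69352913-69353032 (minus strand) for Cdk1, chr4:118437344-118437463 (minus strand) for Cdc20, chr2:164769809-164769928 (plus strand) for Ube2c, chr11:99024190-99024309 (minus strand) for Top2a, chr19:37376262-37376381 (plus strand) for Kif11, chr7:131560250-131560369 (plus strand) for Bub3 and chr6:66535101-66535220 (plus strand) for Mad2l1. The last was chosen as a gene with no match.
Cdk1: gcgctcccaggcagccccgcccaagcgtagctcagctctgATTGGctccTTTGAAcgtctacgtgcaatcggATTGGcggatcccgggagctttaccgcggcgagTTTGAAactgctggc
Cdc20: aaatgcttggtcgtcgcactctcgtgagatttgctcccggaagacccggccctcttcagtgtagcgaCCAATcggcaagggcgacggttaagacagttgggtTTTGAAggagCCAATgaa
Ube2c: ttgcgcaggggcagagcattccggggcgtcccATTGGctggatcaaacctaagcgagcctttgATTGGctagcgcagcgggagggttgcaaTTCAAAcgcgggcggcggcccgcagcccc
Top2a: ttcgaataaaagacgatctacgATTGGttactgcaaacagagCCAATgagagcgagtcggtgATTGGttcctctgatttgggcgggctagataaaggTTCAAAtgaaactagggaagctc
Kif11: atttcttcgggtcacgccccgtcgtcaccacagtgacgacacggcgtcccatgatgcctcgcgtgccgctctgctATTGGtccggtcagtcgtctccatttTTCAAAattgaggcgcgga
Bub3: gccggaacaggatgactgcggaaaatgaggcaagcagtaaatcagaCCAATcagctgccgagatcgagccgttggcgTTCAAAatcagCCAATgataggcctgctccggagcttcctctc
Mad2l1: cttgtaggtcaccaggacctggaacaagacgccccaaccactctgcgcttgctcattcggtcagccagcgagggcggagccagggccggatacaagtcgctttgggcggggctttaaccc

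In Cdk1, both the CHR and the CCAAT box occurred more than once, with TTTGAA 71 and 15 bases before the start and ATTGG 80 and 48 bases before it. In Cdc20, TTTGAA lay 18 bases before the start, between CCAAT boxes at 53 and 8 bases. Kif11 had the simplest layout, with ATTGG 45 bases and TTCAAA 19 bases before the start. Over the whole window, 25 of the 32 genes (78.1%) held TTTGAA, against 18.1% of 27025 promoters of the same length, 24 held CCAAT, against 37.9%, and 9 (28.1%) held TTTAAA, against 13.2%. From 100 bases before the start to 50 after it, 20 of the 32 (62.5%) held TTTGAA and CCAAT together, against 1.92% of all promoters. In 22 genes a CCAAT box stood upstream of a TTTGAA, with a median of 33.5 bases (9 to 153) from the start of one to the start of the other, and TTTGAA overlapped another searched motif once. No match was found for Mad2l1, Nuf2 and Nusap1; that says only that these letters are not in this window. No promoter entry was matched for Aurkb, Ccna2, Cdc25c, Foxm1, Incenp, Kif20a and Tpx2.

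**Figure D1:**
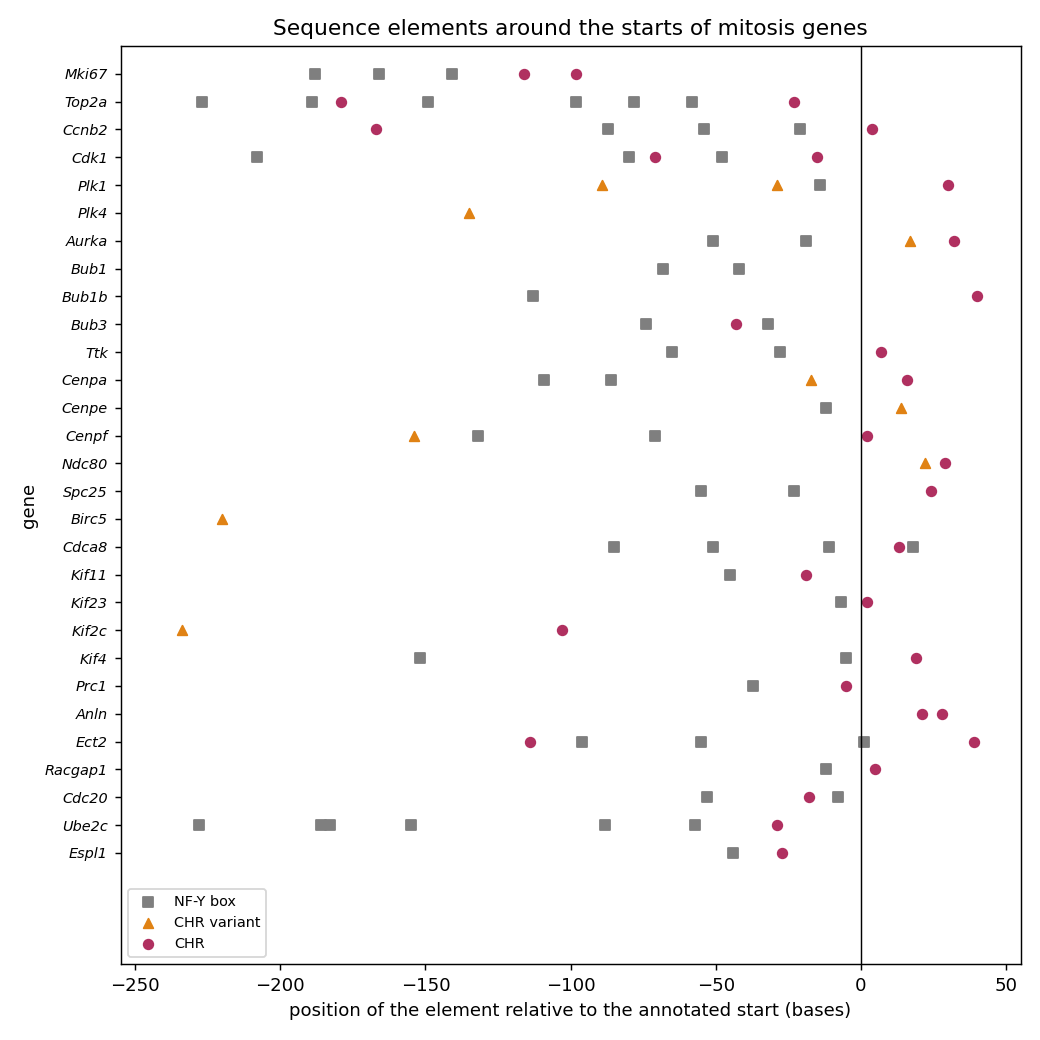
Positions of TTTGAA (CHR), TTTAAA (CHR variant) and CCAAT (NF-Y box) matches on either strand, in bases from the annotated start at 0, for the 29 mitosis genes with at least 1 match. Most TTTGAA matches lie within 100 bases before and 50 bases after the start, and CCAAT boxes lie mostly upstream of them.

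Array by array, 1 of the 8 stood apart. KO LSK replicate 1 was the lowest of the 8 arrays for all 39 mitosis genes, whereas it was the lowest for 15.7% of all tested rows. Its gap to the next lowest array had a median of 0.56 over the 39 genes, from 0.15 for Bub3, a checkpoint protein, to 0.92 for Ect2, which is needed for cytokinesis. Over all rows where that array was lowest, the median gap was 0.11. The next lowest array was Het LSK replicate 2 for 30 genes, KO GMP replicate 1 for 8 and Het LSK replicate 1 for 1.

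The median over the 39 genes was 7.74 and 7.59 on the Het LSK arrays, 6.99 and 7.89 on the KO LSK arrays, 8.14 and 8.04 on the Het GMP arrays, and 7.75 and 8.04 on the KO GMP arrays. The 2 KO LSK arrays therefore lay on either side of the Het LSK arrays. The highest array was Het GMP replicate 1 for 21 genes, KO GMP replicate 2 for 7, KO LSK replicate 2 for 5, Het GMP replicate 2 for 4, and each Het LSK array for 1. Subtracting each array's median left KO LSK replicate 1 the lowest for 39 of 39 genes (16.1% of all rows).

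**Figure D2:**
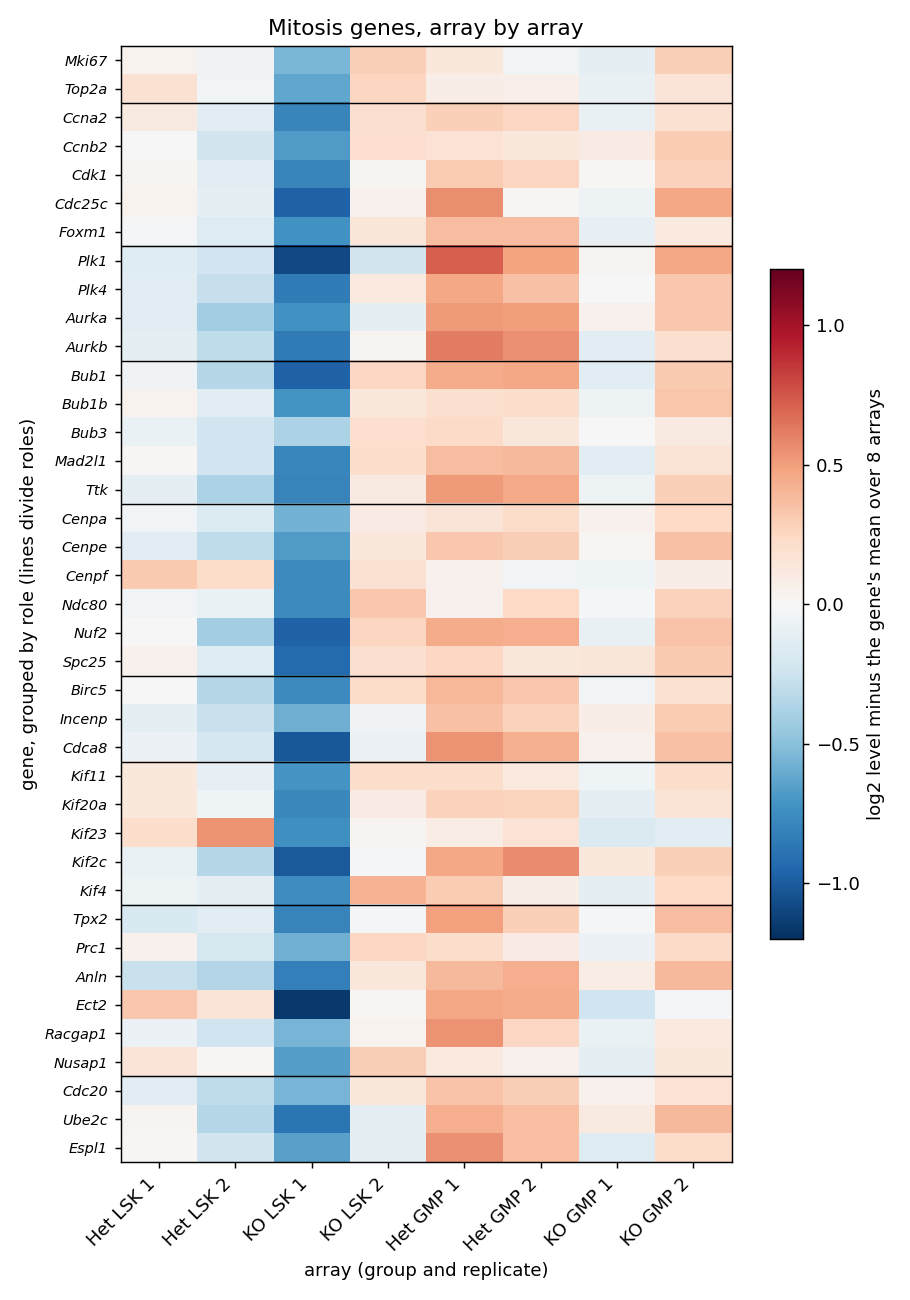
Log2 level of each of the 39 mitosis genes (rows, grouped by role, with lines between roles) on each of the 8 arrays (columns), minus the gene's mean over the 8 arrays. The column of KO LSK replicate 1 is the lowest in every row, and the 2 Het GMP columns are mostly above the mean.

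Within each group, replicate 1 was set against replicate 2. In KO LSK, replicate 1 was lower for 39 of 39 genes, by a median of 0.88 (a 1.84-fold difference), and each gene was lower by more than 0.5. Only 5.62% of all rows were lower by that much, and 50.0% were lower at all. KO GMP had a smaller gap of the same sign, with replicate 1 lower for 39 of 39 genes by a median of 0.27 (1.21-fold), against 49.0% of all rows. In Het LSK, replicate 1 was higher for 37 of 39 genes, with a median difference of 0.17. In Het GMP it was higher for 31, with a median difference of 0.05. Replicates of a group have no order, and the rule for these genes already named a possible difference between the KO LSK arrays, so these values are a description without a test.

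**Figure D3:**
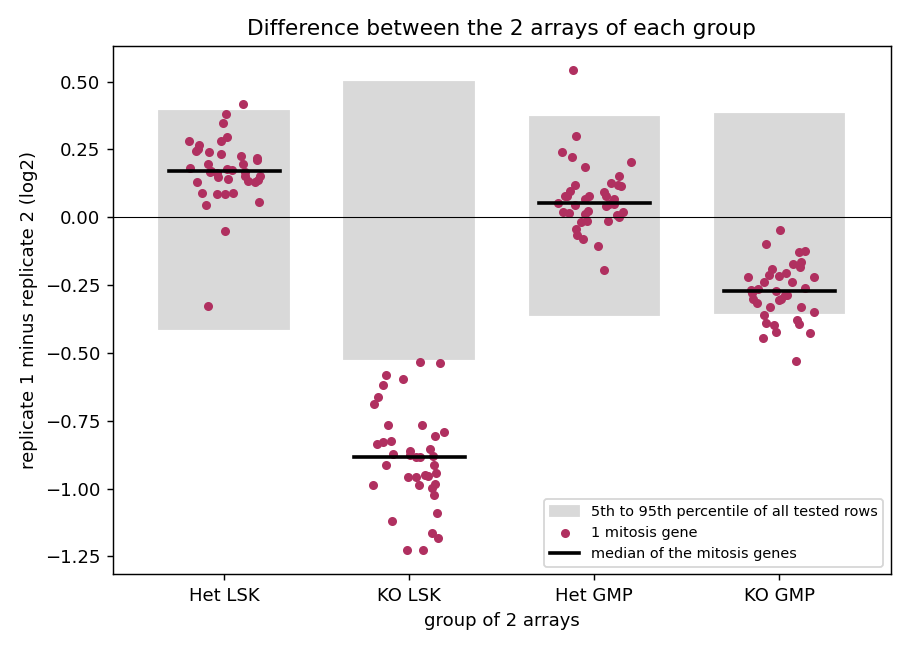
Difference in log2 level between replicate 1 and replicate 2 of each group, with a point for each of the 39 mitosis genes, a black bar at their median and a grey box from the 5th to the 95th percentile of all tested rows. The KO LSK points all lie below the grey box (median -0.88), and the KO GMP points all lie below 0 (median -0.27).

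Other features of the KO LSK arrays differed too. Of 8 mature neutrophil markers, 7 were higher on KO LSK replicate 1 than on replicate 2, by a median of 0.58 over the 8, led by Ngp (1.25) and Camp (1.07). All 8 GMP markers were higher on it as well, by a median of 0.40. Of all rows, 50.0% were lower on replicate 1. The other marker lists had medians of 0.27 (monocyte), 0.18 (megakaryocyte), 0.15 (LSK), 0.05 (B cell), 0.00 (T and NK) and -0.23 (erythroid). Single genes in those lists also differed widely, among them Vpreb1 (1.87) and Thy1 (-0.82). The medians of the neutrophil markers were 7.76 and 9.72 on the Het LSK arrays, 8.49 and 8.06 on the KO LSK arrays, 10.07 and 10.93 on the Het GMP arrays, and 9.40 and 9.37 on the KO GMP arrays. Het LSK replicate 2, with the higher neutrophil level of its group, was also the lower of its group in the mitosis genes. Het GMP replicate 2 was likewise higher in the first and lower in the second, with mitosis medians of 8.14 and 8.04. Set against KO LSK replicate 1, however, Het LSK replicate 2 was higher in both (9.72 against 8.49, and 7.59 against 6.99). The KO GMP arrays had close neutrophil medians, 9.40 and 9.37, and mitosis medians of 7.75 and 8.04. The part of these cells in the mitosis gene levels was not tested.

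Mki67, a protein of dividing cells that coats mitotic chromosomes, stood at 9.21 and 9.12 in Het LSK, 8.61 and 9.45 in KO LSK, 9.29 and 9.14 in Het GMP, and 9.05 and 9.45 in KO GMP. Top2a, the topoisomerase that untangles sister chromatids, stood at 9.69 and 9.48 in Het LSK, 8.89 and 9.77 in KO LSK, 9.59 and 9.58 in Het GMP, and 9.42 and 9.66 in KO GMP. For both genes KO LSK replicate 1 was low, KO LSK replicate 2 was above both Het LSK arrays, and the Het cell types were close: the GMP minus LSK difference in Het was 0.05 for Mki67 (95% interval -0.51 to 0.61) and 0.00 for Top2a (-0.56 to 0.56).

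The cyclins Ccna2 and Ccnb2, their kinase Cdk1, its activating phosphatase Cdc25c and the transcription factor Foxm1 showed the same low array. Cdk1 stood at 9.13 and 8.96 in Het LSK, 8.31 and 9.13 in KO LSK, 9.40 and 9.35 in Het GMP, and 9.11 and 9.37 in KO GMP. Foxm1, which activates many of the other genes here, stood at 7.50 and 7.36 in Het LSK, 6.79 and 7.66 in KO LSK, 7.88 and 7.88 in Het GMP, and 7.42 and 7.63 in KO GMP. The Foxm1 levels of KO GMP lay below those of Het GMP without overlap, and those of Cdk1 overlapped. Over the 5 genes the KO LSK arrays differed by 0.82 to 1.02.

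Polo and aurora kinases, which drive centrosome maturation, spindle assembly and chromosome alignment, differed most between GMP and LSK. Plk1 stood at 7.88 and 7.79 in Het LSK, 6.94 and 7.80 in KO LSK, 8.74 and 8.50 in Het GMP, and 8.06 and 8.49 in KO GMP. Aurka, the spindle pole kinase, stood at 7.50 and 7.22 in Het LSK, 6.90 and 7.52 in KO LSK, 8.15 and 8.13 in Het GMP, and 7.69 and 7.95 in KO GMP. Aurkb, the kinase of the chromosomal passenger complex, stood at 8.40 and 8.20 in Het LSK, 7.66 and 8.54 in KO LSK, 9.13 and 9.06 in Het GMP, and 8.39 and 8.70 in KO GMP. All 4 kinases of this group, with Plk4 of centriole duplication, were above both Het LSK arrays in both Het GMP arrays, and below both Het GMP arrays in both KO GMP arrays. Of all rows, 29.7% were separated in the first way and 27.9% in the second.

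Spindle checkpoint genes hold anaphase until each chromosome is attached. Ttk, the kinase at the head of the checkpoint, stood at 6.99 and 6.71 in Het LSK, 6.29 and 7.20 in KO LSK, 7.60 and 7.55 in Het GMP, and 7.03 and 7.38 in KO GMP. Its Het GMP arrays were the highest of the 8. Bub1, another checkpoint kinase, had the widest gap between the KO LSK arrays, 6.88 and 8.11. Bub3 had the narrowest gap of the group at 0.58, and it is the only one of the 39 with a KO LSK mean above the Het LSK mean, by 0.06.

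Among the kinetochore genes, Cenpf ran against the rest between cell types in Het. In KO the GMP minus LSK difference of Cenpf was 0.30, of the same sign as the rest. The Het separation given next, GMP below LSK, held for 28.2% of all rows. Cenpf stood at 7.53 and 7.44 in Het LSK, 6.45 and 7.39 in KO LSK, 7.26 and 7.18 in Het GMP, and 7.16 and 7.29 in KO GMP, so that both Het GMP arrays lay below both Het LSK arrays. Nuf2, a subunit of the Ndc80 complex that binds microtubules, stood at 7.49 and 7.08 in Het LSK, 6.52 and 7.75 in KO LSK, 7.94 and 7.93 in Het GMP, and 7.41 and 7.83 in KO GMP. The gap between the KO LSK arrays over the 6 genes of this role had a median of 1.02. Its largest value was 1.23, for Nuf2, and its smallest 0.66, for Cenpa, the centromeric histone.

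Passenger complex genes Birc5, Incenp and Cdca8 had GMP minus LSK differences of 0.51 to 0.62 in Het, with GMP above LSK in both arrays of each. The same separation held for 29.7% of all rows. Of the 5 kinesins, which are the motor proteins of the spindle and midzone, Kif2c stood at 7.06 and 6.79 in Het LSK, 6.12 and 7.11 in KO LSK, 7.60 and 7.70 in Het GMP, and 7.26 and 7.42 in KO GMP. Kif23, a midzone motor of cytokinesis, stood at 8.07 and 8.40 in Het LSK, 7.13 and 7.89 in KO LSK, 7.95 and 8.03 in Het GMP, and 7.69 and 7.74 in KO GMP. It was the other gene with Het GMP below Het LSK, and its KO LSK arrays were both below both Het LSK arrays.

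Ect2, which acts at the start of furrow ingression, had the lowest KO LSK array relative to Het. It stood at 7.41 and 7.24 in Het LSK, 5.93 and 7.11 in KO LSK, 7.55 and 7.53 in Het GMP, and 6.85 and 7.07 in KO GMP. In both cell types both KO arrays were below both Het arrays, as they were for 22.7% of all rows in LSK and 27.9% in GMP. Its partner Racgap1, a subunit of centralspindlin, stood at 7.08 and 6.91 in Het LSK, 6.60 and 7.19 in KO LSK, 7.69 and 7.39 in Het GMP, and 7.07 and 7.27 in KO GMP. Of the genes of anaphase onset, Cdc20 activates the anaphase-promoting complex, Ube2c is its ubiquitin-conjugating enzyme, and Espl1 is separase, the protease that cuts cohesin. Espl1 stood at 6.34 and 6.11 in Het LSK, 5.67 and 6.21 in KO LSK, 6.87 and 6.68 in Het GMP, and 6.17 and 6.55 in KO GMP. The gap between the KO LSK arrays was smallest in these 3 genes as a role, with a median of 0.69.

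The first comparison asked what losing the second Cbfb allele did to the mitosis genes in LSK cells. By limma, 0 of the 39 were called at an adjusted p under 0.05, either higher or lower, against 7.73% of all rows (3.02% higher and 4.71% lower); 2 were lower at an unadjusted p under 0.05, Ect2 and Kif23, against 19.6% of all rows in either direction. The median difference was -0.20 over the 39 genes and 0.01 over all rows, and 38 of 39 differences were below 0. After array medians were subtracted, 34 of 39 were below 0, with a median of -0.11 against 0.10 for all rows. The largest were those of Ect2 (-0.81, SE 0.31, adjusted p = 0.184), Kif23 (-0.73, SE 0.23, adjusted p = 0.102), Cenpf (-0.56, SE 0.25, adjusted p = 0.265) and Plk1 (-0.47, SE 0.26, adjusted p = 0.379).

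The mean of KO LSK summarised arrays that lay far apart. KO LSK replicate 1 was below the Het LSK mean for 39 of 39 genes, with a median of -0.67 and a lowest value of -1.40 for Ect2, while replicate 2 was above it for 34, by a median over the 39 of 0.21. Without KO LSK replicate 1, the median difference was 0.21 and 0 of 39 were called, against 7.41% of all rows. Without KO LSK replicate 2, the median was -0.67 and 15 of 39 were lower with a call, against 3.97% of all rows: Top2a, Ccna2, Cdk1, Foxm1, Plk1, Cenpf, Ndc80, Spc25, Cdca8, Kif11, Kif20a, Kif23, Kif2c, Ect2 and Nusap1. In such a fit the remaining KO LSK array was assumed to vary like the arrays of the other groups. Both KO arrays were below both Het LSK arrays for 3 genes, Cenpf, Ect2 and Kif23, against 22.7% of all rows, and above both for 0, against 22.8%; after array medians were subtracted, it was 2, against 14.8%, and 0, against 34.7%. The standard error of a member's difference had a median of 0.25, against 0.15 for all rows, and the 95% interval of a difference reached 0.57 to each side in the median gene. Marker lists differed between the same groups: 7 of 8 B cell markers fell in KO LSK, with list medians of 7.74 and 7.32 on the Het LSK arrays and 4.36 and 4.53 on the KO LSK arrays, and 5 of 9 megakaryocyte markers rose and 1 fell (6.69 and 6.29 against 7.51 and 7.88). The part of such cells in the mitosis gene levels was not tested.

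**Figure D4:**
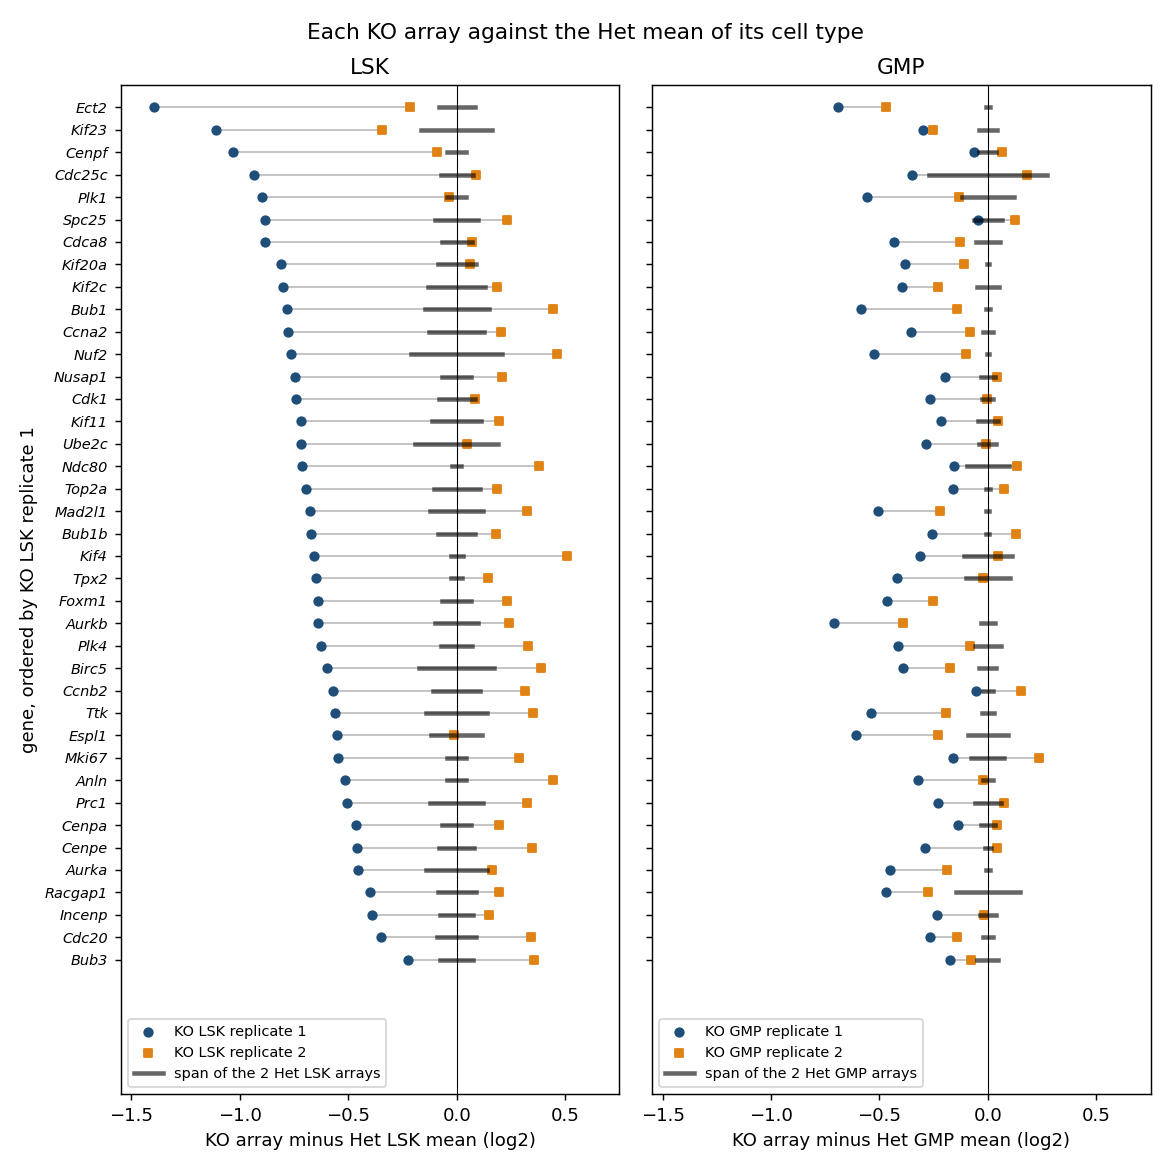
Each KO array minus the Het mean of its cell type, in log2 units, for the 39 mitosis genes in LSK (left) and GMP (right). Blue points are replicate 1 and orange squares replicate 2, joined by thin light grey lines. Thick dark bars around 0 are the span of the 2 Het arrays. In LSK the 2 KO arrays lie on opposite sides of 0 for most genes, and in GMP replicate 1 lies below 0 for all 39.

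In GMP cells, 0 of the 39 were called between KO and Het by limma, against 6.02% of all rows (3.45% higher and 2.57% lower), and 0 at an unadjusted p under 0.05, against 17.3%. The median difference was -0.20 over the 39 genes and -0.02 over all rows, and 35 differences were below 0 (39 after array medians were subtracted, with a median of -0.26 against -0.07 for all rows). Both KO GMP arrays were below both Het GMP arrays for 20 of 39 genes, against 27.9% of all rows, and above both for 0, against 23.4%. After array medians were subtracted, it was 24 of 39, against 35.5%. These 20 were all 4 polo and aurora kinases, the checkpoint genes Bub1, Bub3, Mad2l1 and Ttk, the passenger genes Birc5 and Cdca8, the kinesins Kif20a, Kif23 and Kif2c, the cytokinesis genes Ect2 and Racgap1, Cdc20 and Espl1, Ccna2, Foxm1 and Nuf2. Mki67, Top2a and Kif11 were not among them. The 39 genes tended to shift together from array to array. A count of genes, here or in the other comparisons, is therefore not a count of separate observations.

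The largest GMP differences were those of Ect2 (-0.58, SE 0.31, adjusted p = 0.400), Aurkb (-0.55, SE 0.25, adjusted p = 0.311), Espl1 (-0.42, SE 0.20, adjusted p = 0.346) and Racgap1 (-0.37, SE 0.20, adjusted p = 0.406). KO GMP replicate 1 was below the Het GMP mean for 39 genes, by a median of 0.32, and replicate 2 for 25, with a median of -0.08. The spread in the fit came mostly from KO LSK: without KO LSK replicate 1, and likewise without replicate 2, the median standard error of a GMP difference fell to 0.14, and Ect2 alone was called lower in KO GMP (adjusted p = 0.0294), 1 of 39 against 3.15% of all rows. Some marker lists moved with genotype in the same cells, where 3.45% of all rows were called higher and 2.57% lower. Of the 8 GMP markers and the 8 B cell markers, 0 were called. All 9 measured megakaryocyte markers were higher in KO GMP, with list medians of 5.02 and 5.52 on the Het GMP arrays and 8.83 and 9.06 on the KO GMP arrays, and of 6 monocyte markers 4 were lower and 1, Cd14, was higher. Their part in the mitosis gene levels was not tested.

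The interaction, which asks whether the KO effect differed between GMP and LSK, was called for 0 of 39 genes by limma, against 2.29% of all rows (1.69% higher and 0.601% lower), and for 0 at an unadjusted p under 0.05, against 13.1%. Its median was 0.03, with 21 genes above 0 and 18 below; after array medians were subtracted, it was -0.10, with 14 above and 25 below, against -0.16 for all rows. The largest were Cenpf (0.56), Kif23 (0.45), Spc25 (0.37) and Aurkb (-0.35). The sign of the median was not stable to leaving out an array: it was -0.39 without KO LSK replicate 1 and 0.49 without KO LSK replicate 2, and it was also below 0 without Het LSK replicate 1 (-0.058), KO GMP replicate 2 (-0.092) or Het GMP replicate 2 (-0.00077). Cenpf was called without KO LSK replicate 2 (1.03, adjusted p = 0.031), while it was 0.09 without KO LSK replicate 1 (adjusted p = 0.847).

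Between the cell types, mitosis genes were mostly higher in GMP than in LSK. In Het, 37 of 39 differences were above 0, with a median of 0.45 over the 39 genes and 0.01 over all rows, which is 1.37-fold. In 32 of 39 genes both Het GMP arrays were above both Het LSK arrays, against 29.7% of all rows, and in 2, Cenpf and Kif23, below both, against 28.2%. After array medians were subtracted, they were 37 and 1, against 50.2% and 16.3% of all rows, with a median of 0.61 against 0.16. By limma, 1 gene was called higher, Aurka, which rose by 0.78 (SE 0.20, adjusted p = 0.0292) from LSK to GMP, against 17.5% of all rows (7.9% higher and 9.6% lower), and 13 were higher at an unadjusted p under 0.05, against 29.2% in either direction. Aurkb (0.79, adjusted p = 0.0632), Plk1 (0.78, adjusted p = 0.0731) and Ttk (0.72, adjusted p = 0.101) had differences of similar size that did not pass.

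The Het comparison did not use the KO arrays for its means but used them for its spread. It took LSK and GMP arrays as independent, as did the KO comparison and the interaction, although they may share mice. Leaving out either KO LSK array takes the gap between those 2 arrays, wide in these genes, out of the spread. The Het differences stay the same, with a median of 0.45, so calls gained in this way come from the smaller spread alone. Without KO LSK replicate 1, and likewise without replicate 2, which leave the same spread, 20 of 39 were called higher, against 9.68% of all rows: Foxm1, Plk1, Plk4, Aurka, Aurkb, Bub1, Mad2l1, Ttk, Cenpe, Nuf2, Birc5, Incenp, Cdca8, Kif2c, Tpx2, Anln, Racgap1, Cdc20, Ube2c and Espl1. Aurka no longer passed without Het LSK replicate 1 (adjusted p = 0.0523) or 2 (0.185), nor without Het GMP replicate 1 (0.138) or 2 (0.118). By role, the median difference in Het was 0.78 for polo and aurora kinases, 0.55 for anaphase genes, 0.52 for passenger genes, 0.49 for checkpoint genes, 0.39 for spindle and cytokinesis genes, 0.32 for cyclins and Cdk1, 0.26 for kinetochore genes, 0.24 for kinesins and 0.02 for Mki67 and Top2a. Within the roles the values ranged widely: the kinesins ran from -0.24 for Kif23 to 0.72 for Kif2c, and the spindle and cytokinesis genes from 0.00 for Nusap1 to 0.72 for Anln, an actin-binding protein of the cleavage furrow.

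In KO, 39 of 39 differences between GMP and LSK were above 0, with a median of 0.42 over the 39 genes and -0.02 over all rows. By limma 0 were called, against 6.05% of all rows (3.66% higher and 2.39% lower), and 7 were higher at an unadjusted p under 0.05, against 19.2% in either direction. The largest were Plk1 (0.90, adjusted p = 0.0851), Cdca8 (0.74, adjusted p = 0.162), Ube2c (0.74, adjusted p = 0.124) and Kif2c (0.72, adjusted p = 0.182). Both KO GMP arrays were above both KO LSK arrays for 6 genes, Aurka, Cdca8, Incenp, Kif2c, Plk1 and Ube2c, against 21.5% of all rows. This comparison rested on which KO LSK array was used. The KO GMP mean was above KO LSK replicate 1 for 39 of 39 genes, by a median of 0.85 (0.43 to 1.33), but above replicate 2 for 16 of 39, with a median difference of -0.02 (-0.36 to 0.47). In fits without 1 of the KO LSK arrays, the median difference was 0.85 without replicate 2 and -0.02 without replicate 1. Each of these fits rests on 1 KO LSK array.

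**Figure D5:**
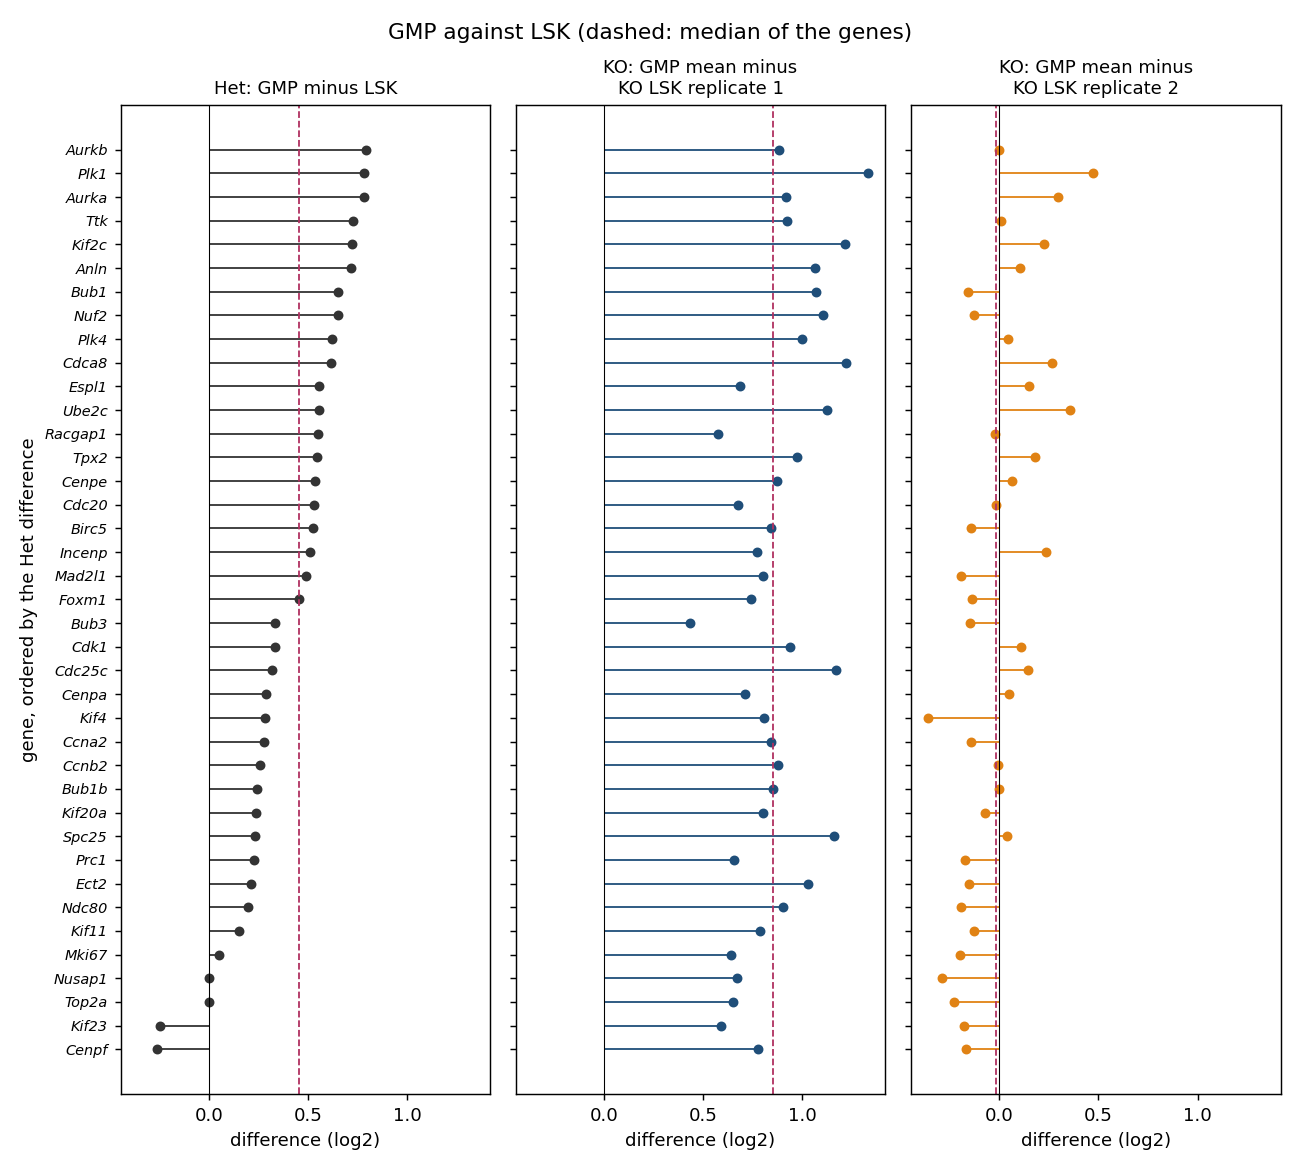
GMP minus LSK difference in log2 units for each of the 39 mitosis genes, ordered by the Het difference, in Het (left), and for the KO GMP mean minus KO LSK replicate 1 (middle) or replicate 2 (right). The dashed lines are the medians, 0.45, 0.85 and -0.02.

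The Het and KO differences, which come from separate arrays, had a Pearson correlation of 0.61 across the 39 genes, given as a description. For the CHR element, the median of KO LSK replicate 1 minus KO LSK replicate 2 was -0.86 for the 24 genes with TTTGAA near the start. It was -0.99 for the 8 matched genes without TTTGAA there. The median GMP minus LSK difference in Het was 0.29 and 0.58 in these 2 sets. These values are descriptions of genes chosen for their function.

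Further genes of the cell cycle were taken from lists made with earlier results of these data known. Of all rows, KO LSK replicate 1 was the lowest array for 15.7% and below replicate 2 for 50.0%. Of 76 other measured mitosis genes, it was the lowest array for 67 and below replicate 2 for 74, with a median difference of -0.75. Of 28 DNA replication genes it was lowest for 26 and below replicate 2 for all 28, with a median of -0.61. The 16 genes of the anaphase-promoting complex, its activator Fzr1 and its inhibitor Fbxo5 among them, had it lowest for 8, with a median of -0.18. For 14 genes of the DREAM and MuvB complexes it was lowest for 9, with a median of -0.40. In KO GMP, replicate 1 was below replicate 2 for 74 of the 76 other mitosis genes and 25 of the 28 replication genes. It was lower for 11 of the 16 anaphase-promoting complex genes and 12 of the 14 DREAM and MuvB genes, against 49.0% of all rows.

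Calls between genotypes in these lists stood beside 3.02% of all rows called higher and 4.71% called lower in LSK. There, 1 of the 76 other mitosis genes rose, Bora, an activator of Aurka (0.58, adjusted p = 0.0243), and 1 fell, Pttg1, which encodes securin, the inhibitor of separase (-0.59, adjusted p = 0.0151). Of the 28 DNA replication genes 1 fell, the chromatin assembly factor gene Chaf1b (-0.68, adjusted p = 0.0301). Pttg1 was lower in KO LSK with either KO LSK array left out, at -0.56 (adjusted p = 0.053) without replicate 1 and -0.62 (adjusted p = 0.0373) without replicate 2. Bora lost its call without KO LSK replicate 2 (adjusted p = 0.0979), Het LSK replicate 1 (0.0569) or Het LSK replicate 2 (0.154), Chaf1b without KO LSK replicate 1 (0.113), Het LSK replicate 1 (0.129) or Het LSK replicate 2 (0.136), and Pttg1 also without Het LSK replicate 1 (0.106). In GMP, the largest differences among the other mitosis genes were those of Cenpm (-0.71), a centromere protein gene, and Psrc1 (0.65), a spindle protein gene, neither of which passed.

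Between GMP and LSK in Het, 6 of the 76 other mitosis genes rose and 1 fell, with a median of 0.34, a share near the 7.9% of all rows called higher; among those that rose was the centromere cohesin protector Sgo2a (1.14). Of the 28 DNA replication genes 2 rose, also near that share, the ribonucleotide reductase subunit Rrm2 (1.07) and the replicative helicase subunit Cdc45 (0.94), and of the 14 DREAM and MuvB genes Mybl2, which encodes B-Myb (1.07), E2f8 (0.79) and Tfdp1 (0.65) rose and 2 fell, among them Rbl2, the pocket protein p130 of DREAM in resting cells (-0.62). Of the 16 anaphase-promoting complex genes 1 rose, Anapc15 (0.79). Each gene named here lost its call without at least 1 Het array: without Het LSK replicate 1, Sgo2a had an adjusted p = 0.0824, Mybl2 0.0689, E2f8 0.0914, Tfdp1 0.0532, Cdc45 0.129 and Anapc15 0.0601, and without Het LSK replicate 2, Rrm2 had an adjusted p = 0.18 and Rbl2 0.118.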

How the data were processed

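RNA from sorted cells was amplified with a NuGEN kit (named differently in the labels and the design text) and hybridised to 8 arrays. The deposited values are log2 levels that the authors made with RMA, a background correction, normalization and probe summary, per the submitters' processing notes; its version and the genome build were not given in the sources used here. RMA forces the arrays to 1 distribution and compresses dim genes, and amplification can alter ratios. The number of arrays limits the precision.

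The labels' genotype and cell type gave the groups. Differences were fitted with limma 3.58.1 in R 4.3.3 (lmFit, 1 mean per group over all 8 arrays, eBayes, two-sided), with Benjamini-Hochberg adjustment over 21789 rows with 1 gene symbol; a call is an adjusted p under 0.05. There were 4 residual and 4.83 prior degrees of freedom. The code was tested on simulated data. Rows with several symbols (1621) or none (12146) were left out. The p-values reflect the spread between arrays, which may be partly technical, and the smallest p of an exact permutation of 2 against 2 arrays is 0.333. Any of the 39 genes could be named, in full those called between genotypes or with the 4 largest differences in a contrast, others as examples of their role; of the other lists, up to 4 called genes per contrast. Genes and lists were chosen with earlier results of these data known. Alternatives were array medians subtracted, row filters, fits of 2 groups, a trended robust spread, replicate blocks and each array left out.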

Additional observations from a re-analysis of the deposited data

How the results depend on the processing

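The counts of mitosis genes called between GMP and LSK depended on the settings. In Het the count was 1 as reported (3813 of 21789 rows called in either direction), 6 with array medians subtracted (4772 rows), 3 among the 10895 rows whose highest group mean was at or above the median (4047 rows), 0 with all 35556 rows of the table tested (3344 rows), 20 with the arrays of these groups alone (4122 rows), 3 with a trended robust spread (4223 rows), and 0 to 20 with each array left out. In KO the count was 0 as reported (1318 rows), 1 with a trended robust spread (1614 rows) and 0 to 32 with each array left out. The number called lower in KO GMP was 1 (Ect2) with the arrays of these groups alone, and 0 to 1 with each array left out; the number called lower in KO LSK was 0 to 15, and the number with a higher interaction 0 to 1. The median over the 39 genes ran from -0.67 to 0.21 in LSK, from -0.39 to 0.49 for the interaction and from -0.015 to 0.85 between GMP and LSK in KO. Over all rows, the calls with each array left out numbered 994 to 1614 in LSK, 634 to 1586 in GMP, 223 to 705 for the interaction, 2078 to 4486 between GMP and LSK in Het and 579 to 1539 in KO. With all rows of the table tested they were 784 in GMP, 182 for the interaction and 756 between GMP and LSK in KO, and with the arrays of 2 groups alone 1071 in LSK and 691 between GMP and LSK in KO. With the replicate number as a block, 1 gene was called between GMP and LSK in Het and 0 in KO; with a block within each genotype, 13 (4162 rows) and 3 (1499 rows) were. The labels give the numbers no shared mouse, litter or day. The correlation of replicate 1 minus replicate 2 was 0.13 between Het LSK and Het GMP and 0.18 between KO LSK and KO GMP. It was -0.14 to -0.025 between the other groups. With 2 arrays a group this is only a hint from the data about which arrays share a mouse. A block with the KO numbers crossed, chosen after seeing the data, called 0 mitosis genes and 1820 rows in LSK. No value called in the reported fit changed its sign.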
